A study of Mus musculus with 2 samples.

Results

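The expression of 10 genes of fibroblast growth factor (FGF) signaling was examined, cell by cell, in the e13.5 mouse eye: the ligands Fgf15, Fgf9 and Fgf3, the receptors Fgfr1 and Fgfr2, the feedback inhibitors Spry1 and Spry2, the feedback phosphatase Dusp6, and the ETS transcription factors Etv4 and Etv5. These 10 genes were taken by symbol from the 31053 genes of the count tables, and all 10 had unique molecular identifiers (UMIs) in both libraries. Eyes without cornea, lens and optic nerve were dissociated and profiled on the 10X Genomics platform as 2 libraries of 3 pooled samples each, 1 library per genotype. Control embryos were Myrf fl/fl, with both Myrf alleles floxed and no Cre, and mutant embryos were Rx>cre Myrf fl/fl, with the same alleles and a Cre driven by Rx, a gene of the early eye field from which both the retinal pigment epithelium (RPE) and the neural retina arise. The control library held 63483835 UMIs in 6039 barcodes (median 10083) and the mutant library 75228861 UMIs in 6754 barcodes (median 10638), of which 5468 and 6300 cells were kept. With 1 library per genotype there were no replicates and no test was made. The intervals given are exact 95% intervals that cover counting error only, and no value separates genotype from differences between the pools of embryos.

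FGFs are secreted ligands that bind receptor tyrosine kinases together with heparan sulfate and act largely through the Ras/MAPK cascade. That cascade induces the ETS factors Etv4 and Etv5 and its own inhibitors, the Sprouty proteins and the ERK phosphatase Dusp6, so these genes are widely used as readouts of FGF signaling. In the optic cup FGF signaling favors neural retina over RPE, and in the retina it is known for its part in the onset of ganglion cell production. The genes lie on several chromosomes (GENCODE annotation of GRCm38, the assembly of mm10). Fgf3 (chr7:144838083-144844436) and Fgf15 (chr7:144896531-144900953) are neighbors on the plus strand, 52.1 kb apart, with Fgf4 between them. The others were Fgf9 (chr14:58070547-58112720), Fgfr1 (chr8:25513654-25575718), Fgfr2 (chr7:130162451-133123350), Spry1 (chr3:37639947-37644598), Spry2 (chr14:105891947-105896819), Dusp6 (chr10:99263231-99267489), Etv4 (chr11:101769742-101785371) and Etv5 (chr16:22381309-22439719).

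Cells were grouped into 14 classes named from their markers as X-like, and levels are in CPM, a gene's UMIs for every 1000000 UMIs of the class in 1 library. The largest classes were the retinal progenitor-like cells (1655 control and 1748 mutant cells) and the periocular mesenchyme-like cells (1466 and 1931). The RPE-like class held 256 control cells (4.68% of those kept) and 153 mutant cells (2.43%). Myrf, the gene targeted by the Cre, had 155 UMIs or 74.6 CPM in control RPE-like cells against 30 UMIs or 20.1 CPM in mutant ones. The log2 ratio of mutant over control was -1.86 (-2.51 to -1.32). The mutant library was thus the lower one, as labelled, although reads of this 3′ assay come from the end of the transcript, so that its UMIs need not cover the deleted part and are no direct check of the deletion. The RPE markers were present in both: 12 of 13 had UMIs in each library with Rgr at 0, Pmel was the most abundant, and their summed level was 14839 CPM in the control and 10540 CPM in the mutant. The libraries shared 72 barcodes, 67 of them among kept cells, and without those cells 46 of 46 log2 ratios of the genes described here stayed within their intervals. So few of the 5468 and 6300 kept cells could hardly move a ratio out of its interval, so this check says little. Hemoglobin and other red blood cell genes differed between the libraries: their summed level (10 genes, Hbb-y the most abundant except for Hbb-bs in the last class) was 983 CPM in control and 1526 CPM in mutant RPE-like cells, 505 and 3166 CPM in progenitor-like cells, 649 and 1998 CPM in periocular mesenchyme-like cells, and 7408 and 854 CPM in neurogenic precursor-like cells. Without hemoglobin, mitochondrial and ribosomal protein genes in the totals, 46 of 46 log2 ratios likewise stayed within their intervals. Retinal progenitor markers summed to 1176 and 900 CPM in the RPE-like cells, and neurogenic precursor markers to 273 and 554 CPM, with Olig2 at 0. Retinal ganglion markers summed to 292 and 149 CPM there, and lens markers to 482 and 540 CPM. Their part in the values of this class was not tested.

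The 3 ligands were highest in retinal progenitor-like cells. Fgf15, the mouse ortholog of human FGF19, had 435 CPM (426 to 444) in control and 494 CPM (485 to 505) in mutant retinal progenitor-like cells, and this class held 91% and 91.3% of all its UMIs. The next classes were the amacrine or horizontal-like cells at 88.8 and 129 CPM and the neurogenic precursor-like cells, which express Atoh7, at 69.5 and 81.9 CPM. The interval of the first class lay apart from all others in both libraries, whereas the amacrine or horizontal-like and neurogenic precursor-like cells overlapped in the control. Their intervals did not overlap in the mutant, but 30.3% of the 89 UMIs of its amacrine or horizontal-like cells came from 1 cell. The second place of that class is thus not read as distinct. All remaining classes were between 3.30 and 17.0 CPM. Red blood cell-like cells, which should not express the gene, were at 4.5 CPM (2.71 to 7.02) and 4.09 CPM (2.95 to 5.54), a level that free RNA in the droplets can give. RPE-like cells had 24 UMIs or 11.6 CPM (7.40 to 17.2) in control and 13 UMIs or 8.70 CPM (4.63 to 14.9) in mutant eyes, where 38.5% of the UMIs came from 1 cell. These cells were much shallower, with medians of 3377 and 3853 UMIs, and the share of cells with a Fgf15 UMI was no higher than in red blood cell-like cells, so the level is not read as expression above background. Endothelial-like cells were at a like level, 12.2 and 11.1 CPM.

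Shares of cells were read against the red blood cell-like cells as well. A Fgf15 UMI was found in 63.7% of control and 66.1% of mutant progenitor-like cells, 27.4% and 25.9% of neurogenic precursor-like cells, 9.84% and 11.9% of retinal ganglion-like cells, 7.42% and 5.23% of RPE-like cells, and 8.17% and 6.15% of red blood cell-like cells. After every cell was thinned to 3000 UMIs, which left 1457 control and 1526 mutant progenitor-like, 131 and 80 RPE-like and 178 and 413 red blood cell-like cells, the shares of progenitor-like cells were 46.8% (44.2 to 49.4) and 52.1% (49.6 to 54.6), those of neurogenic precursor-like cells 13.4% and 13.8%, those of RPE-like cells 3.05% (0.838 to 7.63) and 5% (1.38 to 12.3), and those of red blood cell-like cells 2.25% (0.616 to 5.65) and 0.484% (0.0587 to 1.74). The intervals of RPE-like and of ganglion-like cells (1.10% and 3.40%) overlapped those of the red blood cell-like cells of the same library. The median depths of progenitor-like cells were 10782 and 10233 UMIs, and those of red blood cell-like cells 22476.5 and 22723.5.

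Fgf9, a ligand with a known role in setting the boundary between retina and RPE, was spread over more retinal classes. Its level was 80.2 CPM (76.3 to 84.3) in control and 90.9 CPM (86.7 to 95.3) in mutant progenitor-like cells. The ganglion-like cells followed at 35.3 and 44.9 CPM, the neurogenic precursor-like cells at 25.6 and 36.1 CPM, and the amacrine or horizontal-like cells at 21.4 and 27.6 CPM, 3 classes that overlapped their neighbors in both libraries. Outside the retina, muscle-like cells had 21.5 CPM in the control from 13 UMIs but 2.91 CPM in the mutant from 2 UMIs, surface ectoderm-like cells had 14.1 and 10.2 CPM, and RPE-like cells had 2 and 6 UMIs. Fgf3 was also mostly found in progenitor-like cells, which held 90.7% and 93.7% of its UMIs. They had 449 control UMIs or 23.1 CPM (21.0 to 25.4) and 518 mutant UMIs or 27.1 CPM (24.8 to 29.5), and no other class had more than 15 UMIs for control or 7 for mutant eyes.

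**Figure D1:**
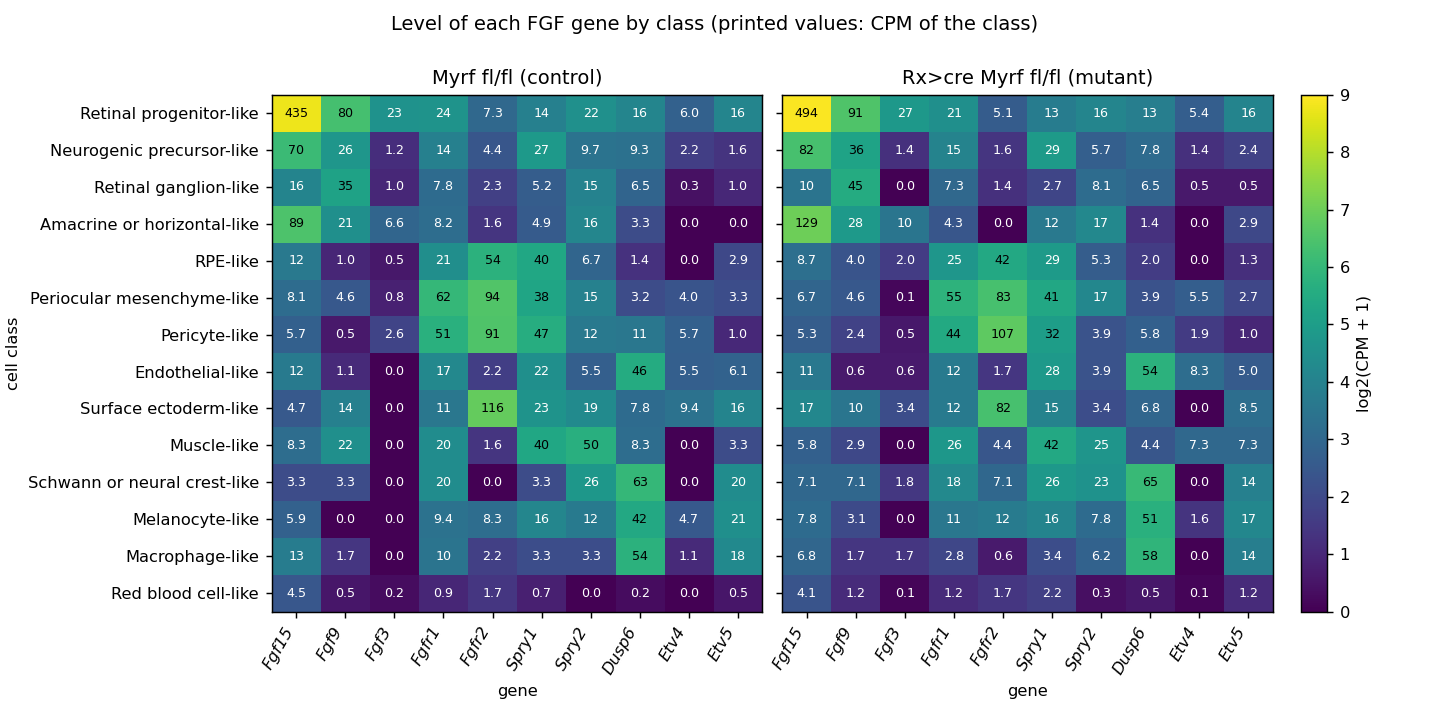
Level of each of the 10 genes (columns) in the 14 classes (rows) of the control library (left) and the mutant library (right), with the CPM printed in each field and the color giving log2(CPM + 1). The ligands are brightest in the retinal classes at the top, Fgfr1 in periocular mesenchyme-like and pericyte-like cells, Fgfr2 in these and in surface ectoderm-like cells, and Dusp6 in endothelial-like, macrophage-like, melanocyte-like and Schwann or neural crest-like cells.

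The receptors were highest outside the retina. Fgfr1 was led by the periocular mesenchyme-like cells, the neural crest and mesoderm derived tissue around the eye, at 62.1 CPM (58.6 to 65.6) for control and 55.0 CPM (52.1 to 58.0) for mutant eyes. Pericyte-like cells followed with overlapping intervals at 51.0 and 43.7 CPM, and progenitor-like cells were at 23.6 and 21.1 CPM. Fgfr2 was found in 3 classes at similar levels: the surface ectoderm-like cells (116 and 81.5 CPM), the periocular mesenchyme-like cells (93.6 and 82.7 CPM) and the pericyte-like cells (91.1 and 107 CPM). Their intervals overlapped in the control, so that the first place of the surface ectoderm-like cells there is not distinct, and pericyte-like cells lay above periocular mesenchyme-like cells in the mutant. RPE-like cells came next with 54.4 CPM (44.8 to 65.4) for control and 42.2 CPM (32.4 to 53.9) for mutant eyes, above the progenitor-like cells at 7.27 CPM (6.12 to 8.57) and 5.07 CPM (4.11 to 6.19). Fgfr2 was thus higher in the RPE-like than in the progenitor-like cells of each library, while Fgfr1 had overlapping intervals in both, at 20.7 CPM (15 to 27.9) and 25.4 CPM (18 to 34.9) in RPE-like cells.

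The feedback genes did not share one pattern. Spry1 was led by pericyte-like (47.4 CPM), RPE-like (40.4), muscle-like (39.7) and periocular mesenchyme-like cells (37.8) in the control, 4 classes with overlapping intervals, and by muscle-like (42.3 CPM) and periocular mesenchyme-like cells (41.3) in the mutant. Spry2 was highest in muscle-like cells, whose intervals overlapped those of Schwann or neural crest-like cells (26.4 and 23.0 CPM), with 30 control UMIs or 49.6 CPM (33.4 to 70.8) and 17 mutant UMIs or 24.8 CPM (14.4 to 39.7), and was at 21.7 and 16 CPM in progenitor-like cells. In RPE-like cells Spry2 had 14 and 8 UMIs. Dusp6 was led in both libraries by 4 classes, all with overlapping intervals: Schwann or neural crest-like (62.8 and 65.4 CPM), macrophage-like (54.1 and 58.0), endothelial-like (46.0 and 53.9) and melanocyte-like cells (42.5 and 51.2). Progenitor-like cells followed at 15.9 and 13.3 CPM, and RPE-like cells had 3 UMIs in each library.

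Etv4 and Etv5 were at 21.3 CPM or less in every class. Etv5 was at 16.2 CPM (14.4 to 18.1) in control and 15.6 CPM (13.9 to 17.5) in mutant progenitor-like cells, which held 64.6% and 64.1% of its UMIs. Its highest class was the melanocyte-like cells, at 21.3 and 17.1 CPM, with Schwann or neural crest-like (19.8 and 14.1) and macrophage-like cells (18.4 for control cells) alongside, and all these intervals overlapped those of the progenitor-like cells. Etv4 was at 5.98 and 5.39 CPM in progenitor-like cells. No Etv4 UMI was seen in 256 control or 153 mutant RPE-like cells, which allows a level of up to 1.44 and 2.01 CPM, the level of 3 UMIs, and Etv5 had 6 and 2 UMIs. Fgf9, Fgf3, Dusp6, Etv4 and Etv5 thus had at most 6 UMIs per library in this class. Of the 10 genes, 7 had the same highest class in both libraries. The exceptions were Fgfr2 (surface ectoderm-like to pericyte-like), Spry1 (pericyte-like to muscle-like) and Etv4 (surface ectoderm-like to endothelial-like), whose named classes had overlapping intervals in each library.

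Other genes with like patterns were sought by the correlation of log2(CPM + 1) over 28 points, the 14 classes in both libraries, which share library and depth. For Fgf15 these included the eye field factor Rax (also called Rx, r = 0.922) and Zic4 (0.886). For Fgf3 they were Wfdc1 (0.866), Hhipl1 (0.815) and Itpka (0.806), all highest in progenitor-like cells, and for Fgf9 Gm16140 (0.865), Cecr2 (0.851) and Sapcd1 (0.847). For Fgfr1 they were Fstl1 (0.940), Tmem263 (0.922) and Tgfb2 (0.908), for Fgfr2 Egfl6 (0.892), Sned1 (0.883) and Sema5a (0.880), and for Spry1 Fbln1 (0.864), Mum1l1 (0.860) and Parva (0.849). Dusp6 was most like Rasa3 (0.93), Frmd8 (0.853) and the endothelin receptor gene Ednrb (0.848). Spry2 was most like Atr (0.875), Ubp1 (0.868) and the X inactivation RNA Xist (0.862). Etv4 had its nearest genes at lower values, Hist1h2bk (0.772), Cd109 (0.771) and Hist2h3b (0.717), and Etv5 was nearest to the replication and repair genes Brip1 (0.812), Mcm10 (0.794) and Asf1b (0.794). Among the 10 genes themselves, Fgf15 and Fgf3 (0.85), Fgfr1 and Spry1 (0.79), Fgf15 and Fgf9 (0.74), and Dusp6 and Etv5 (0.72) were most alike, whereas Etv4 and Etv5 were at 0.29 and Spry1 and Dusp6 at 0.03.

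Within the retinal progenitor-like class, cells were split by genes of the dorsal (Tbx5, Tbx3, Tbx2) and ventral (Vax2, Vax1, Aldh1a3) retina. Fgf15 was higher dorsally: 590 CPM (565 to 615) in 257 dorsal and 369 CPM (357 to 382) in 738 ventral cells of the control, and 638 CPM (614 to 663) in 340 dorsal and 415 CPM (401 to 429) in 663 ventral cells of the mutant. The log2 ratio of dorsal over ventral was 0.68 (0.60 to 0.75) for control and 0.62 (0.55 to 0.70) for mutant cells. Its neighbor Fgf3 had a larger ratio, 1.02 (0.66 to 1.37) in the control, from 33.6 against 16.6 CPM, and 1.34 (1.01 to 1.68) in the mutant, from 43.0 against 16.9 CPM. Both ligands on chromosome 7 were thus higher in dorsal than in ventral cells of each library. Cells with neither set had Fgf3 at 31.5 CPM (24.3 to 40.0) in the control, overlapping the dorsal cells, and at 28.0 CPM (22.1 to 35.1) in the mutant. Of the dorsal genes, Tbx2 had a UMI in 25.6% of all progenitor-like cells. Fgf9 had smaller ratios of unlike sign: 0.24 (0.04 to 0.43) for control and -0.13 (-0.32 to 0.06) for mutant cells, a difference that was not tested. Among the other genes, Fgfr2 and Spry1 were lower dorsally in the control, at -0.84 (-1.75 to -0.14) and -0.71 (-1.33 to -0.19), but at -0.07 (-0.91 to 0.67) and -0.27 (-0.80 to 0.22) in the mutant. Fgfr1 was higher dorsally in the mutant, at 0.41 (0.03 to 0.78), against -0.11 (-0.52 to 0.27) for control cells. Dorsal cells were somewhat deeper, with medians of 13905 and 12279.5 UMIs against 11153.5 and 11072 in ventral cells, and the part of depth in these ratios was not tested. The part of the clusters of this class was not tested either. Aldh1a3, of the ventral set, is among the 10 leading genes of clusters 2, 3 and 5. Clusters 3 and 5 are low in Fgf15 and Fgf3, so position cannot be told apart from cluster here.

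**Figure D2:**
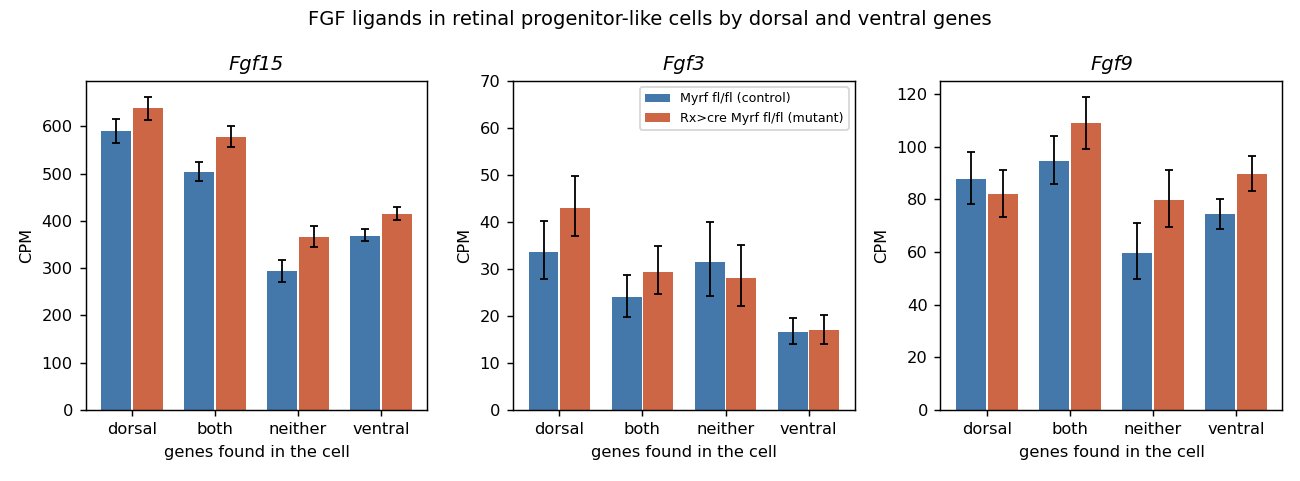
CPM (vertical axis, from 0) of Fgf15, Fgf3 and Fgf9 in retinal progenitor-like cells with UMIs of dorsal genes only, of both sets, of neither, and of ventral genes only (horizontal axis). Bars give the control and mutant libraries with 95% Poisson intervals. Fgf15 and Fgf3 are higher in dorsal than in ventral cells in both libraries, while Fgf9 differs less between these and is lowest in control cells with neither set (59.6 CPM) and highest in mutant cells with both (109 CPM).

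The progenitor-like class was made of 5 clusters. Fgf15 was highest in cluster 6, led by Fgf15, Sfrp2 and the histone gene Hist1h2ap although none of the 10 genes was used for clustering, with 634 CPM (616 to 652) in control and 723 CPM (703 to 742) in mutant cells. It was at 397 and 449 CPM in cluster 2, led by Vax2os, Aldh1a1 and Aldh1a3, and at 414 and 480 CPM in cluster 19. In the shallow clusters 3 and 5 it was only at 94.9 and 111 CPM and at 107 and 152 CPM. Spry2 was also highest in cluster 6, at 29.5 CPM (25.8 to 33.6) in control and 21.1 CPM (17.9 to 24.8) in mutant cells, and Dusp6 and Etv5 were at 20.6 and 20.7 CPM there in the control. Fgf15, Fgf3, Fgfr2, Spry1, Spry2, Dusp6 and Etv5 had their highest levels of the 5 clusters in cluster 6 in both libraries. Of these only Fgf15 had intervals apart from those of every other cluster in each library, while Fgf3 did so in the mutant and the rest overlapped at least 1 cluster in each. Its 10 leading genes also include Aurkb, Kpna2, Prc1 and a second histone gene, and histone genes, Aurkb and Prc1 are known from dividing cells. Such genes were also among the 10 leading ones of cluster 5 (Hmmr, Pbk, Prc1 and histone genes), where Fgf15 was low, and of cluster 19 (Ccnb2, Cenpa and a histone gene). Cluster 6 had the greatest depth of the 5, with a median of 19599 UMIs per cell.

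The comparison of mutant with control asked whether loss of Myrf goes along with altered FGF signals in the pigment epithelium, the retina and the surrounding mesenchyme. A gene was counted where its level differed by at least 1.5-fold (0.585 on the log2 scale) with 50 or more UMIs over the pair of libraries. In the RPE-like cells, only Fgfr1, Fgfr2 and Spry1 had that many UMIs, and none of the 3 passed. Over all 6903 genes with 50 UMIs there, 7.55% were lower and 3.80% higher in the mutant by this measure. Fgfr2 had 113 control and 63 mutant UMIs, giving a log2 ratio of -0.36 (-0.84 to 0.09). For Spry1, 84 and 43 UMIs gave -0.47 (-1.06 to 0.06), and for Fgfr1, 43 and 38 UMIs gave 0.30 (-0.37 to 0.96). All these intervals hold 0, and they also reach past 1.5-fold. The median log2 ratio was -0.36 over the 3 genes and -0.03 over all genes with 50 UMIs.

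In the retinal progenitor-like cells all 10 genes had enough UMIs and none differed by 1.5-fold, where 1.84% of 11543 genes were lower and 0.728% higher. The 3 ligands were slightly higher in the mutant, Fgf15 by a log2 ratio of 0.18 (0.14 to 0.23), Fgf9 by 0.18 (0.08 to 0.28) and Fgf3 by 0.23 (0.04 to 0.41). Fgf15 and Fgf9 were higher in 5 of 5 clusters and Fgf3 in 4. The feedback gene Spry2 and the receptor Fgfr2 had the lowest ratios. Spry2 had 421 control and 306 mutant UMIs, or 21.7 CPM (19.7 to 23.9) and 16 CPM (14.3 to 17.9), giving a log2 ratio of -0.44 (-0.66 to -0.22), and was lower in 4 of 5 clusters. Fgfr2 had a log2 ratio of -0.51 (-0.91 to -0.14) from 141 and 97 UMIs, and Dusp6 one of -0.26 (-0.50 to -0.01) from 309 and 255 UMIs, both lower in 5 of 5 clusters. The clusters are parts of the same 2 libraries and not repeats, and some differences are near ties. In cluster 3, Dusp6 was at 6.98 and 6.29 CPM from 10 and 11 UMIs, and Fgfr2 at 5.58 and 5.15 CPM from 8 and 9 UMIs. Fgfr1 (-0.16), Spry1 (-0.15), Etv4 (-0.15) and Etv5 (-0.05) had intervals that hold 0. Setting the clusters to their control proportions left the log2 ratios of Spry2 and Dusp6 at -0.44 and -0.25 and that of Fgf15 at 0.20.

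Spry2 and Dusp6, feedback genes with negative log2 ratios in progenitor-like cells, are shown by their promoters. Of the 10 genes, 7 were matched in the table of RefSeq promoters used here (GRCm38.p6), from 250 bases before to 50 after a start. The first is chr14:105896770-105897069 on the minus strand and the second chr10:99262981-99263280 on the plus strand, with the core of ETS binding sites, searched as GGAA on both strands, in capitals.

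Spry2: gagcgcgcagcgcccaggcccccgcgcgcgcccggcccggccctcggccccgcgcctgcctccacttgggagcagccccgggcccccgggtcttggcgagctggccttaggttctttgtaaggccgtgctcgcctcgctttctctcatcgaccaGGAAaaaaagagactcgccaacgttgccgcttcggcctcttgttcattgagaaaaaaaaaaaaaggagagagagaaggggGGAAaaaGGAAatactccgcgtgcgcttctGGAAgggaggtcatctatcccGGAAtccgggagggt

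Dusp6: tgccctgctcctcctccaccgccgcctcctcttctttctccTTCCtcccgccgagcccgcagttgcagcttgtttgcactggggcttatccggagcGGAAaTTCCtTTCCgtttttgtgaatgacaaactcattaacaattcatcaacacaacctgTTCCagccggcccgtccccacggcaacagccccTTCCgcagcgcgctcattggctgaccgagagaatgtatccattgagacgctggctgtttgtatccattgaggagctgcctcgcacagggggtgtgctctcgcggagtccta

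The core occurs 5 times in the Spry2 and 6 times in the Dusp6 window, against a median of 3 over 32851 promoters, 96.0% of which hold it. The other entries had 1 (Spry1), 3 (Fgf9), 4 (Fgfr2) and 5 (Fgf3) matches, and the 2 of Etv5 had 6 and 0. The longer ETS motif CCGGAAG, which holds the core and was also searched on both strands, was in 8.86% of all promoters and in none of the 8 entries of these genes, which says only that these letters are not in these windows.

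Each library holds cells of female and male embryos, told by Xist and by 4 Y-linked genes, with 63.3% female among the called cells in the control and 46.9% in the mutant. No sex was called for 2366 of 5468 control and 2977 of 6300 mutant cells. Called progenitor-like cells were 462 female and 361 male of 1655 in the control, and 475 and 409 of 1748 in the mutant. They need not stand for the whole class: control Fgf15 was at 496 and 469 CPM in them, against 435 CPM in the class. Comparing within a sex sets apart different embryos of the pools. Spry2 was lower in the mutant progenitor-like cells of both, with log2 ratios of -0.43 (-0.78 to -0.08) in female and -0.46 (-0.84 to -0.09) in male cells. Spry1 was at -0.25 (-0.65 to 0.14) in female and -0.22 (-0.70 to 0.25) in male cells, and Fgf3 at 0.04 (-0.29 to 0.38) and 0.25 (-0.05 to 0.55). Several other small differences were uneven. Fgfr2 was at -0.01 (-0.64 to 0.63) in female and -1.03 (-1.84 to -0.32) in male cells, Fgfr1 at -0.35 (-0.67 to -0.04) and 0.02 (-0.34 to 0.37), Dusp6 at -0.42 (-0.80 to -0.04) and 0.04 (-0.39 to 0.48), Fgf15 at 0.07 (0.01 to 0.14) and 0.32 (0.25 to 0.40), and Fgf9 at 0.00 (-0.15 to 0.16) and 0.29 (0.12 to 0.46). For Fgf15 these intervals do not overlap. None of the differences between the sexes was tested.

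**Figure D3:**
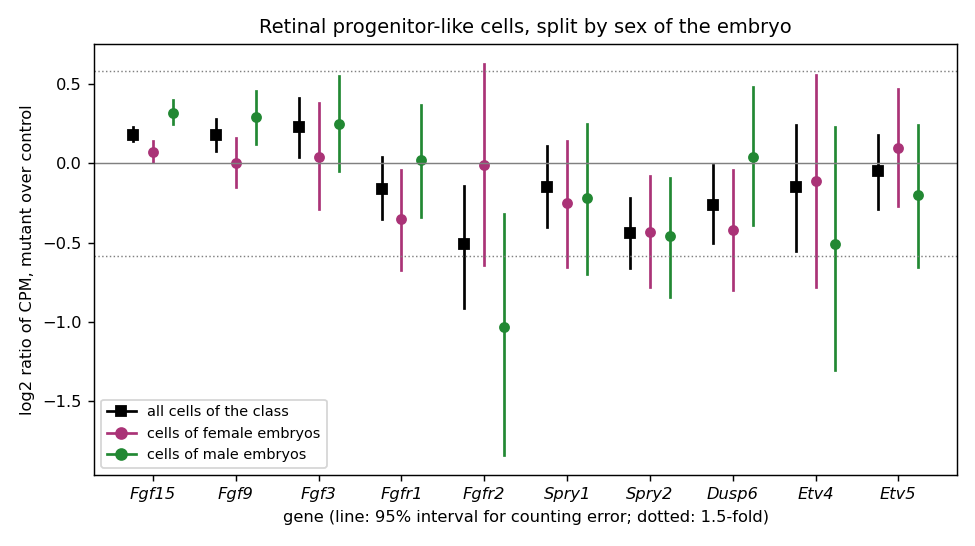
Log2 ratio of CPM, mutant over control, in retinal progenitor-like cells (vertical axis) for each gene (horizontal axis), in all cells of the class, in cells of female embryos and in cells of male embryos. Cells with no called sex are only part of the first. Lines are 95% intervals for counting error and dotted lines mark 1.5-fold. Spry2 is below 0 in all 3, while Fgfr2 (male), Dusp6 (female) and Fgfr1 (female) have intervals below 0 in 1 sex each.

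Other retinal classes had fewer cells. In neurogenic precursor-like cells 6 genes had 50 UMIs, and only Spry2 passed 1.5-fold, with 31 control and 21 mutant UMIs giving a log2 ratio of -0.75 (-1.65 to 0.07). Among all 8231 genes 2.96% were lower and 1.36% higher there. The interval of Spry2 holds 0, and its log2 ratio turned to 0.31 when cells above 20000 UMIs were left out. No gene passed under 11 of the alternatives tried, but in some of these Spry2 had under 50 UMIs and could not be counted. Its log2 ratio was -0.46 (-1.84 to 0.82) in female cells, from 13 control and 10 mutant UMIs. In male cells it was -0.25 (-1.99 to 1.49), from 7 and 7 UMIs. Fgf9 was higher in the mutant, at 36.1 CPM against 25.6, with a log2 ratio of 0.49 (0.09 to 0.91). In the ganglion-like cells 4 genes had 50 UMIs and 2 were lower by 1.5-fold, against 2.57% lower and 1.51% higher among 8136 genes. Spry2 was one, with 46 control and 30 mutant UMIs, 15 against 8.11 CPM, and a log2 ratio of -0.87 (-1.60 to -0.19). By sex its ratio was -1.40 (-2.77 to -0.38) in female cells, from 28 and 9 UMIs. In male cells it was -0.51 (-1.61 to 0.62), from 15 and 16 UMIs. Fgf15 was the other, at -0.64 (-1.31 to 0.00), but 64.6% of its 48 control UMIs came from 1 cell and its ratio without that cell and the top mutant cell was 0.67. In neurogenic precursor-like and ganglion-like cells the ratios of Spry2 rest on only 52 and 76 UMIs. Among classes with under 50 Spry2 UMIs, its log2 ratio was also below 0 outside the retina, at -0.97 (-1.95 to -0.10) in muscle-like and -1.45 (-2.94 to -0.34) in pericyte-like cells, from 47 and 30 UMIs. In surface ectoderm-like cells 12 Spry2 UMIs for control stood against 2 for mutant cells, and the log2 ratio was 0.06 (-1.25 to 1.45) in amacrine or horizontal-like cells. It was above 0 in macrophage-like cells, at 0.79 (-0.67 to 2.61) from 6 control and 11 mutant UMIs, and red blood cell-like cells had 0 and 3 UMIs. The other classes with few UMIs, namely endothelial-like, melanocyte-like, RPE-like and Schwann or neural crest-like cells, were between -0.48 and -0.26 with intervals that hold 0.

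**Figure D4:**
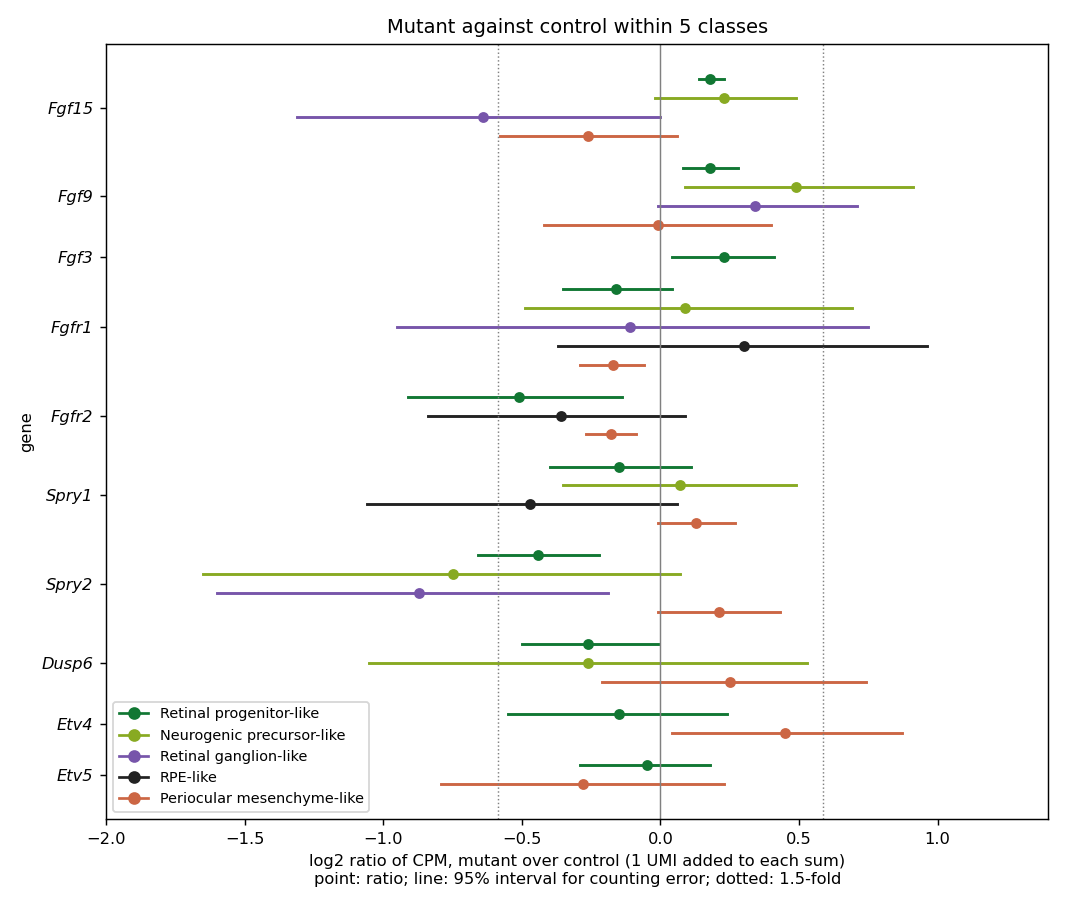
Log2 ratio of CPM, mutant over control (horizontal axis), for each gene (vertical axis) in 5 classes, where both libraries together held at least 50 UMIs. Points are ratios, lines 95% intervals for counting error and dotted lines mark 1.5-fold. Of the classes drawn, Spry2 lies below 0 in progenitor-like, neurogenic precursor-like and ganglion-like cells and at 0.21 in periocular mesenchyme-like cells, while classes with fewer UMIs are not drawn, and most other points lie within the dotted lines.

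In the periocular mesenchyme-like cells 9 genes had 50 UMIs and none passed 1.5-fold, where 1.95% of 12354 genes were lower and 1.04% higher. Fgfr1 and Fgfr2 were slightly lower in the mutant, with log2 ratios of -0.17 (-0.29 to -0.06) and -0.18 (-0.27 to -0.09). Etv4 was at 4.04 CPM (3.20 to 5.02) in control and 5.52 CPM (4.64 to 6.53) in mutant cells, giving a log2 ratio of 0.45 (0.04 to 0.87), and Spry2 at 0.21 (-0.01 to 0.43). With the 6 clusters of this class at their control proportions the ratio of Etv4 was 0.26 and that of Spry2 0.14. Cluster 11, which is rich in both genes, made up 12.1% of the control and 16.4% of the mutant class.

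The clusters of this class had unlike levels of the genes. Cluster 11, led by Meox1, Msc and the tendon gene Scx, had the highest levels of Spry2 (47.0 and 44.3 CPM), Spry1 (58.1 and 73.2 CPM), Etv4 (17.7 and 24 CPM) and Dusp6 (8.42 and 11.7 CPM). For Spry1 its intervals overlapped those of cluster 10 (48.7 and 65.3 CPM) in both libraries and of cluster 18 in the control. For Dusp6 they overlapped those of cluster 18 (7.57 and 5.26 CPM) in both and of clusters 4 and 10 in the control, so only Spry2 and Etv4 stood apart from every other cluster of the class in each library. Its Fgfr2 was low at 31.0 and 24.3 CPM. Cluster 12, led by Col9a3, Cldn11 and Asgr1, was the opposite, with Fgfr2 at 201 CPM (183 to 220) and 158 CPM (143 to 173), Spry2 at 5.03 and 4.84 CPM and Etv4 with no UMI in the control and 1 in the mutant. Fgfr1 varied much less, from 46.6 to 68.7 CPM over the 6 clusters of the control. Cluster 18, led by Osr2, Foxl2 and Pdlim3, had the highest level of Fgf9, at 15.8 CPM (10.2 to 23.3) in control and 28.1 CPM (20.7 to 37.2) in mutant cells. The highest levels of the feedback genes and of Fgfr2 were thus in different clusters.

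**Figure D5:**
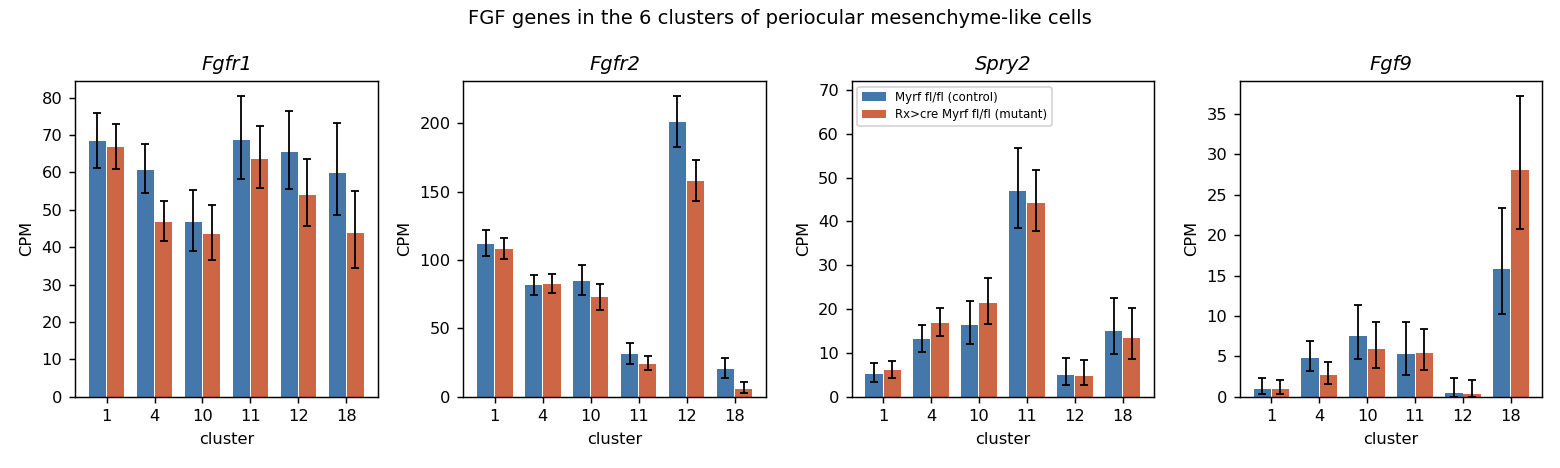
CPM (vertical axis, from 0) of Fgfr1, Fgfr2, Spry2 and Fgf9 in the 6 clusters of periocular mesenchyme-like cells (horizontal axis, cluster number) in the control and mutant libraries, with 95% Poisson intervals. Fgfr2 peaks in cluster 12, Spry2 in cluster 11 and Fgf9 in cluster 18, and Fgfr1 is more even.

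The remaining pathway was followed in a list of 49 genes. In RPE-like cells 8 of them had 50 UMIs and none passed 1.5-fold (median log2 ratio -0.21), where 7.55% of all genes tested were lower and 3.80% higher. They were the adaptors Grb2 (-0.38) and Ptpn11 (0.12), the membrane proteins Flrt2 (-0.30) and Flrt3 (0.51), and Hs2st1 (0.25), Ext1 (-0.26), Ext2 (-0.17) and Ugdh (-0.25) of heparan sulfate synthesis, all with intervals that hold 0. Of the 15 other ligands, 9 had no UMI in these cells and none had 50. In progenitor-like cells 29 had 50 UMIs with a median of -0.02, and 1 was lower: Ndst2, a heparan sulfate sulfotransferase, at 6.44 against 4.18 CPM and a log2 ratio of -0.62 (-1.05 to -0.21). Of all genes tested 1.84% were lower and 0.728% higher in these cells. Fgf8 was the only other ligand with 50 UMIs in these cells, at 11.5 and 13.9 CPM and 0.27 (0.01 to 0.54). Of the 11 other feedback regulators and targets 9 had 50 UMIs and none passed, with a median of -0.20. Among them, the ERK pathway inhibitors Il17rd (-0.22), Dusp5 (-0.22) and Spred3 (-0.24) were below 0 and Spred1 (0.13) and Spred2 (0.26) above it, all with intervals that hold 0. In periocular mesenchyme-like cells 31 had 50 UMIs with a median of -0.03, and 2 were lower: Fgf12, an intracellular FGF homologous factor, at -1.51 (-2.18 to -0.92), and the receptor Fgfr3 at -0.85 (-1.53 to -0.22). There 1.95% of all genes were lower and 1.04% higher. Ndst2 was also low in these cells, at 11.1 against 7.62 CPM and -0.54 (-0.83 to -0.26), whereas the ETS factor Etv1 was higher, at 15.9 and 21.3 CPM and 0.42 (0.22 to 0.63). The ligand Fgf18 was at 18.7 and 23.1 CPM there, and reached 227 and 219 CPM in the amacrine or horizontal-like cells. In neurogenic precursor-like cells none of 17 passed (median -0.02), with 2.96% of all genes lower and 1.36% higher, and in ganglion-like cells none of 15 (median 0.02), with 2.57% lower and 1.51% higher. Among the other classes, 2 of 6 were lower in muscle-like and 2 of 13 in pericyte-like cells. Endothelial-like, macrophage-like, red blood cell-like and Schwann or neural crest-like cells had 1 higher each, and the rest none. Shares over all genes are not given for these classes. Their counts are thus not read as results about the pathway.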

How the data were processed

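For each genotype, eyes of 3 samples at e13.5 were pooled into 1 library of the 10x 3′ expression assay. The submitters' processing notes name Cell Ranger 7.1.0, Seurat 4.1.1 and mm10. The deposited values are raw UMI counts per gene and barcode, made by the authors. The header of the deposited count matrices names software version 3.0.0, and whether intronic reads were counted is not given in the sources used here. If they were, unspliced RNA adds to the levels.

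Barcodes with under 200 genes (5 control, 9 mutant) or over 15% mitochondrial UMIs (515 and 371) were left out, and Scrublet in scanpy 1.11.5 marked 51 and 74 doublets at an expected rate of 5%. The kept cells had medians of 11332 and 11154 UMIs. They were integrated and clustered in Seurat 5.3.0 (R 4.3.3) with 30 dimensions at a resolution of 0.8, which gave 28 clusters. The FGF genes, the pathway list and Myrf were left out of the variable features, leaving 1992 of 2000. Clusters were named X-like where at least 3 markers of a list were 2-fold up and the mean log2 fold of the list was at least 0.5. Both thresholds were set with the clusters in view. Unnamed were 4 clusters, with 15.2% of control and 12.4% of mutant cells. As an exception to the rule, they include cluster 9 (207 control and 307 mutant cells, median 1726 UMIs). It met both thresholds with retinal ganglion markers, at a mean of 2.34 and 10 markers 2-fold up, but is not part of the ganglion-like class. The 10 genes, the pathway and marker lists and the comparisons were chosen with earlier results of these data known.

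For every class and library the UMIs of all cells were added up and given as CPM with exact Poisson intervals (scipy 1.17.1). Log2 ratios had 1 UMI added to each sum and an exact conditional binomial interval, and shares of cells had Clopper-Pearson intervals. A count of 0 allows up to 3 UMIs. The genes named for likeness were the 3 of highest Pearson correlation for each member with at least 200 UMIs, among other genes with as many UMIs, leaving out hemoglobin, ribosomal protein and mitochondrial genes, and 1 of them is not reported here. Classes with at least 20 cells in each library were compared. Ratios and intervals were tested on simulated counts drawn as independent Poisson sums, which is what the intervals assume. This checks the computation only, since UMIs gathered in single cells were not simulated. Alternatives were kept doublets, limits of 2000 or 20000 UMIs per cell, a mitochondrial limit of 5%, no integration, resolutions of 0.4 and 1.6, classes by a rule per cell, totals that leave out hemoglobin, ribosomal protein and mitochondrial genes, cells of 1 sex, sums without the cell with the most UMIs, means of log values, minimums of 10 and 100 UMIs, 0.5 UMI added, and thinning to 2000 or 5000 UMIs. The limit of 2000 UMIs is the doublet rule that the methods of the study name, and it served only as an alternative because it leaves few cells. Leaving out barcodes found in both libraries was chosen after seeing the data.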

Additional observations from a re-analysis of the deposited data

Results flagged for a closer look

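Fgf9 in periocular mesenchyme-like cells differed in direction between the sexes. The log2 ratio of mutant over control was -0.89 (-1.66 to -0.24) in cells of female embryos, from 69 control and 24 mutant UMIs, and 0.83 (-0.02 to 1.96) in cells of male embryos, from 12 and 47 UMIs. Over all cells of the class, including those with no called sex, it was -0.01 (-0.42 to 0.40). The difference between the sexes was not tested, since each sex is a part of 1 library per genotype and the number of embryos behind it is not given in the sources used here.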

How the results depend on the processing

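Of 638 log2 ratios recomputed under alternatives for genes with at least 50 UMIs in a class, 580 stayed within the counting interval of the value reported, 51 left it and 7 reversed a ratio past 1.5-fold. The 580 include 46 of 46 each from adding 0.5 UMI and from leaving out shared barcodes, which change the sums little. Removing all cells above 2000 UMIs left few cells and gave 8 ratios, 6 of which lay outside that interval. Fgf15 in ganglion-like cells reversed 6 times: to 0.09 and 0.29 at resolutions of 0.4 and 1.6, 0.66 with a limit of 20000 UMIs per cell, 1.62 in cells of female embryos, 0.67 without the cell with the most UMIs, and 0.02 as a mean of log values. Spry2 in neurogenic precursor-like cells reversed to 0.31 with the limit of 20000 UMIs. The cause was not tested, other than by leaving out that cell. In progenitor-like cells the ratio of Spry2 was between -0.62 and -0.40 in all alternatives that gave it except the mean of log values. On that other scale it was -0.03, and the reason for this was not tested.

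The count of genes past 1.5-fold in neurogenic precursor-like cells, 1 as reported, was 3 with a minimum of 10 UMIs and 0 under 11 alternatives: resolution 0.4, doublets kept, both UMI limits, the mitochondrial limit of 5%, the rule per cell, cells of each sex, without the top cell, means of log values and a minimum of 100 UMIs. The gene counted was Spry2, with 52 UMIs. In cells of each sex, without the top cell and at a minimum of 100 UMIs it lay below the minimum. It could not be counted there whatever its ratio, so these counts of 0 do not show a lost difference. In progenitor-like cells, 0 as reported, the count was 1 with doublets kept (Fgfr2, -0.63), 2 by the rule per cell (Fgfr2, -0.81; Spry2, -0.62) and 1 in male cells (Fgfr2). In periocular mesenchyme-like cells, also 0, it was 2 in female cells (Fgf9 and Etv4), 1 in male cells (Fgf9) and 1 with a minimum of 10 UMIs. In RPE-like cells it was 0 except 1 with the mitochondrial limit of 5% (Fgfr2, -0.64). For the 49 pathway genes in RPE-like cells, 0 as reported, it was 1 with doublets kept, with the limit of 20000 UMIs and in male cells, and 6 with a minimum of 10 UMIs. Shares over all genes are not given for the alternatives, so the counts above cannot be set against them. Genes with the same highest class numbered 7 as reported and 3 with the limit of 2000 UMIs. Thinned shares of Fgf15 in control progenitor-like cells were 38.9% at 2000 and 65.0% at 5000 UMIs. No paired analysis was possible because each genotype has 1 library.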
